A study of Mus musculus with 8 samples.

Results

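*Arid4a*, *Arid4b*, *Rb1* and *Sin3a* are genes of a chromatin pathway that acts with the androgen receptor in the testis. *Rhox5* is a gene that responds to androgen. These 5 genes were followed in RNAseq of whole mouse testes at 12 days of age (P12). They are 5 of the 40840 genes in the count tables, found by their symbols, and all 5 passed the filter on low counts, which 19104 genes passed in all. The members were chosen from the genotype contrast of these same mice with its results known, so their differences between genotypes are given as a description, with no p-value. Each genotype had 4 mice, labelled A to D. Wild type mice carried Tra2bPE fl/+ without Cre, that is, 1 copy of *Tra2b* with LoxP sites around its poison exon, an exon that stops translation and marks the RNA for decay. *Tra2b-cPEko* mice were fl/- and carried *Vasa-Cre*, which is active in germ cells only and removes the exon there from before birth. Their Sertoli, Leydig and myoid cells kept 1 copy of the exon, because the other copy was inherited already deleted. All mice were on a C57BL/6J background. Reads assigned to genes numbered 36757386 in the shallowest library and 59101569 in the deepest.

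ARID4A and ARID4B are paralogous proteins that bind the retinoblastoma protein, the product of *Rb1*, and bring to it the SIN3 complex, which holds histone deacetylases and has SIN3A as its scaffold. In Sertoli cells, the somatic cells that nurse the germ cells, both ARID4 proteins and the retinoblastoma protein are known as coactivators of the androgen receptor. *Rhox5*, a homeobox gene of the X chromosome, is the classic androgen-responsive gene of Sertoli cells, and its level in the testis rises with androgen action before puberty.

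On GRCm39, GENCODE vM39 places *Arid4a* at chr12:71062144-71146121 and *Arid4b* at chr13:14237817-14374188. *Rhox5* lies at chrX:36891636-36897311, *Sin3a* at chr9:56979324-57037381 and *Rb1* at chr14:73421113-73563507, on the reverse strand where the other 4 are on the forward strand. RefSeq gene starts of GRCm38.p6 were matched for 3 of the 5 genes: *Arid4b*, *Rhox5* and *Sin3a*. The start of *Rhox5* is shown because this gene reads out androgen action, with the androgen receptor half-site letters TGTTCT (or AGAACA on the other strand) in capitals. The second of the start entries of *Sin3a* is shown because the retinoblastoma protein binds E2F factors, with the E2F core letters GCGGGA (or TCCCGC) in capitals. The windows run from 250 bases before to 50 bases after the start, 5′ to 3′ on the forward strand.
Rhox5, chrX:37754358-37754657: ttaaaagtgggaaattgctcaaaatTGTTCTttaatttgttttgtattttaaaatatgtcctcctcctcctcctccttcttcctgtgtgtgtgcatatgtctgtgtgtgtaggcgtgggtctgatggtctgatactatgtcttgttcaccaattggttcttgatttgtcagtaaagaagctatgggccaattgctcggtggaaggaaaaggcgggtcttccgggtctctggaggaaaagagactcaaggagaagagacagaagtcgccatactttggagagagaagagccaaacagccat
Sin3a, chr9:57076126-57076425: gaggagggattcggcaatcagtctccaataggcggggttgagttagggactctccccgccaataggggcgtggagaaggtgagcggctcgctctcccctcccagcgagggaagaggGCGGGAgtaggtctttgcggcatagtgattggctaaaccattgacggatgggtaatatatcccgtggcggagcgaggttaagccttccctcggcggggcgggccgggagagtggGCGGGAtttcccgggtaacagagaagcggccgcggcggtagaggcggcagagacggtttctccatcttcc
The half-site letters were found 1 time in the *Rhox5* window and the E2F core 2 times in this *Sin3a* window. Neither was found in the *Arid4b* window or in the other *Sin3a* window. Among all 32851 windows of this kind, 18.97% hold the half-site and 19.98% the E2F core, so a match is a description and not a binding site. The RefSeq and GENCODE records of *Rhox5* differ in length, and the start shown need not be the one used in these testes.

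Some libraries stood apart before any comparison. *Tra2b-cPEko* mouse C held RNA of epididymal genes. *Crisp1*, a secreted protein of the epididymis, had 107.2 CPM (reads of a gene relative to the library total, on the usual CPM scale with TMM factors) in that mouse, 0.341 in mouse A, 0.0817 in mouse D and 0 in mouse B and in all 4 wild type mice. The 11 epididymal markers summed to 157.3 CPM in mouse C and to between 9.91 and 13.4 CPM in the other 7 mice. Not all of them were raised in mouse C. *Cst8* had 8.17 CPM there and 7.19 to 10.2 CPM in the other 7 mice, where it made up most of the sum. Wild type mice A and B were high in the pachytene genes *Piwil1*, which binds piRNAs (43.6 and 46.8 CPM against 9.04 to 14.4 CPM in the other 6 mice), and *Ldhc*, a lactate dehydrogenase of spermatocytes (28.7 and 25.1 CPM against 3.14 to 9.86 CPM). The targeted gene, *Tra2b*, had 163.8 CPM in wild type and 197.8 CPM in *Tra2b-cPEko* mice without overlap (log2 fold change 0.27, standard error 0.05, adjusted p = 0.0552 in the quasi-likelihood test of edgeR, and 1.95e-04 in DESeq2). A count over the whole gene does not read the poison exon itself. Its paralogue *Tra2a* was lower in *Tra2b-cPEko* mice (log2 fold change -0.89, standard error 0.08, adjusted p = 0.00231 from edgeR).

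*Arid4a* is the member whose level differed most between genotypes. In wild type mice A to D it had 65.3, 68.0, 71.9 and 68.0 CPM. In *Tra2b-cPEko* mice A to D it had 85.8, 76.8, 88.0 and 86.8 CPM. The lowest *Tra2b-cPEko* mouse, B, lay above the highest wild type mouse, C, so the genotypes did not overlap. The means were 68.3 ± 2.71 CPM (SD, n = 4) and 84.3 ± 5.12 CPM (SD, n = 4), a difference of 23.5% and a log2 fold change of 0.30 (standard error 0.05). Fits that omitted 1 mouse gave *Arid4a* log2 fold changes of 0.28 to 0.34, and the fit without wild type mice A and B gave 0.27. Without *Tra2b-cPEko* mouse C, the library with epididymal RNA, it was 0.28. Counting gave little error, with at least 2818 reads on *Arid4a* in each mouse. *Arid4a* shares 468 exon bases with *3110056K07Rik*, a noncoding gene on the other strand, and no source says whether counting used the strand, so reads from that stretch cannot be told apart.

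*Arid4b* was the paralogue with more reads and the smaller difference. It had 164.2, 148.4, 172.8 and 158.5 CPM in wild type mice A to D and 166.5, 166.2, 170.9 and 168.1 CPM in *Tra2b-cPEko* mice A to D. All 4 *Tra2b-cPEko* values lay inside the wild type range. *Arid4b* had a log2 fold change of 0.06 (standard error 0.05), which was 0.03 without wild type mouse B and 0.10 without wild type mouse C. The SD was 10.3 CPM among wild type and 2.13 CPM among *Tra2b-cPEko* mice.

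**Figure D1:**
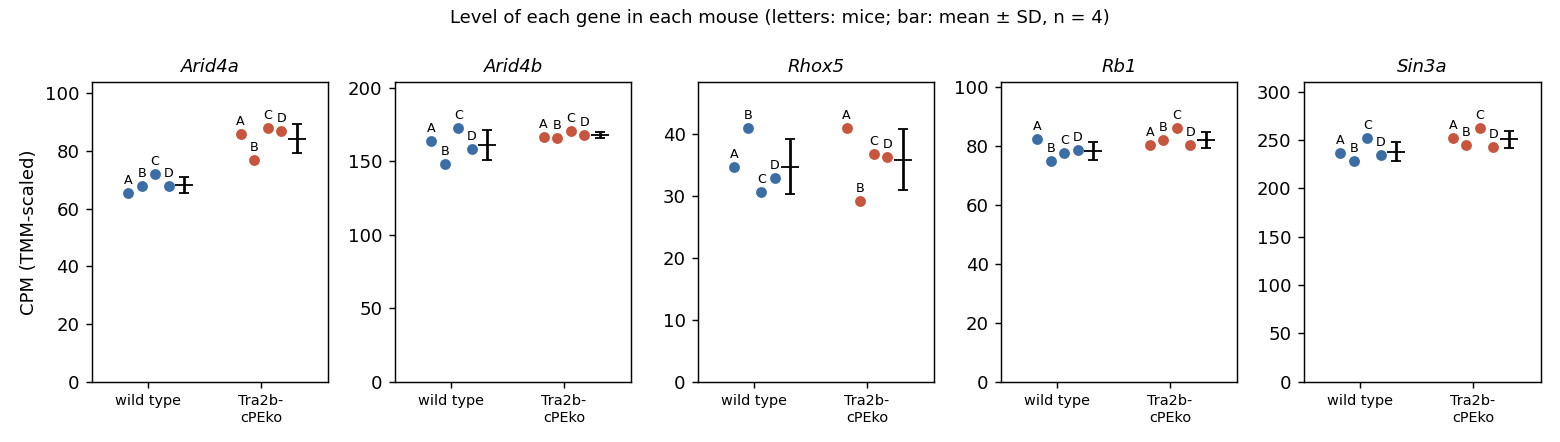
CPM of the 5 genes (y axis, TMM-scaled, from 0) in each mouse of the 2 genotypes (x axis); letters name the mice and the black bars give mean ± SD (n = 4). *Arid4a* is the panel in which the genotypes do not overlap, with wild type mice at 65.3 to 71.9 CPM and *Tra2b-cPEko* mice at 76.8 to 88.0 CPM.

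The balance of the paralogues was read in each mouse as the log2 ratio of *Arid4a* reads to *Arid4b* reads, which needs no scaling between libraries. It was -1.33, -1.12, -1.26 and -1.22 in wild type mice A to D, and -0.96, -1.11, -0.96 and -0.95 in *Tra2b-cPEko* mice A to D. The genotypes did not overlap, but wild type mouse B and *Tra2b-cPEko* mouse B nearly met. *Arid4a* thus took 29.8% ± 1.25 (SD, n = 4) of the reads of the pair in wild type and 33.4% ± 1.21 (SD, n = 4) in *Tra2b-cPEko* testes. The means of the log2 ratio differed by 0.24, and by 0.21 to 0.28 with each mouse left out. This ratio rests on the same contrast that chose the genes and has no test.

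**Figure D2:**
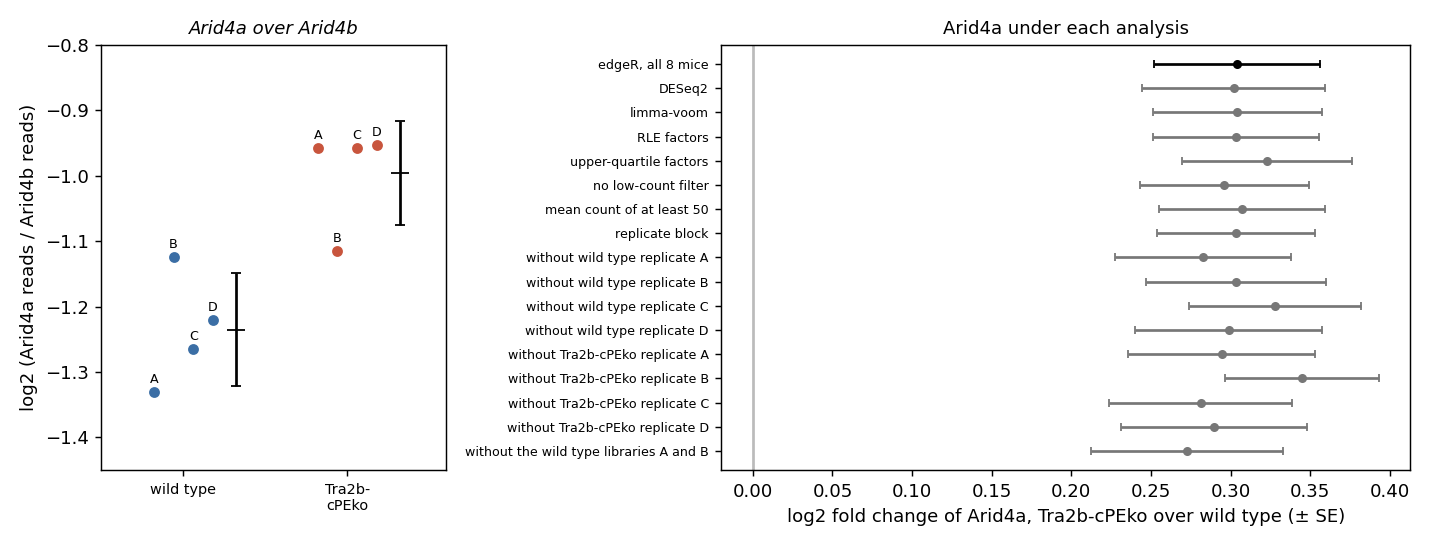
Left, log2 ratio of *Arid4a* to *Arid4b* reads (y axis, not from 0) in each mouse with mean ± SD (n = 4); right, log2 fold change of *Arid4a* ± SE (x axis) under each analysis (rows). All log2 fold changes of *Arid4a* lie between 0.27 and 0.34, and the log2 ratios of the B mice of the 2 genotypes are neighbours at -1.12 and -1.11.

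*Rhox5*, the readout of androgen action, showed a wide spread within both genotypes. It had 34.6, 40.9, 30.7 and 32.9 CPM in wild type mice A to D and 41.0, 29.1, 36.9 and 36.4 CPM in *Tra2b-cPEko* mice A to D. The highest and the lowest value both came from *Tra2b-cPEko* mice. The log2 fold change of *Rhox5* was 0.05 (standard error 0.11), and it ran from -0.03 to 0.13 with each mouse left out. Without wild type mice A and B it was 0.18 (standard error 0.12). *Tra2b-cPEko* mouse C, which carried epididymal RNA, had the second highest *Rhox5* value of its genotype and lay inside the wild type range. *Rhox5* is also a gene of the epididymis, and the part of this RNA in its value was not tested. In bulk testis, the number of Sertoli cells and the *Rhox5* RNA of each cell cannot be told apart.

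*Rb1*, which encodes the retinoblastoma protein, had 82.3, 74.9, 77.7 and 78.8 CPM in wild type mice A to D and 80.3, 82.1, 86.2 and 80.4 CPM in *Tra2b-cPEko* mice A to D. Wild type mouse A lay above 3 of the *Tra2b-cPEko* mice. *Sin3a*, the scaffold of the deacetylase complex, had 236.6, 228.0, 251.5 and 234.6 CPM in wild type mice A to D and 252.2, 245.1, 262.3 and 242.2 CPM in *Tra2b-cPEko* mice A to D. Wild type mouse C lay among the *Tra2b-cPEko* mice. Log2 fold changes were 0.07 (standard error 0.04) for *Rb1* and 0.08 (standard error 0.04) for *Sin3a*. Fits that omitted 1 mouse gave 0.04 (without *Tra2b-cPEko* mouse C) to 0.09 for *Rb1* and 0.05 (without *Tra2b-cPEko* mouse C) to 0.10 for *Sin3a*. *Rb1* shares 488 exon bases with *Rcbtb2* and 408 with *Lpar6*, *Sin3a* 680 with *Man2c1os*, *Arid4b* 257 with *Ggps1* and *Rhox5* 168 with *Gm61728*, all on the other strand.

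Of the 5 members, 1 (*Arid4a*) was among the 30 genes with an adjusted p under 0.05 in edgeR, which are 0.157% of the genes tested. DESeq2, the tool of the study, called 507 genes, or 2.79% of the 18149 with an adjusted p, and *Arid4a* was again the 1 member called. The edgeR call was lost in 6 of the 8 fits without 1 mouse, without wild type mice A and B and with a mean count of at least 50, and limma-voom did not make it. Genotypes without overlap were found in 8.54% of all genes tested and in 1 of the 5 members. The members were chosen on this contrast, so nothing is read from these counts. The median log2 fold change of all genes tested was -0.001.

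Levels of different genes were compared per kilobase of the GENCODE canonical transcript. In wild type testes the order was *Rhox5* (36.2 CPM per kb), *Sin3a* (34.1), *Arid4b* (26.2), *Rb1* (15.6) and *Arid4a* (11.8). *Rhox5* and *Sin3a* did not differ beyond their spread, since *Rhox5* ran from 31.9 to 42.6 and *Sin3a* from 32.7 to 36.1 CPM per kb among wild type mice. The other neighbours did not overlap. In *Tra2b-cPEko* testes the order was the same, with *Arid4a* at 14.5 and *Rb1* at 16.4 CPM per kb. This order depended on the length used. With all annotated exon bases of a gene counted, the wild type order was *Sin3a* (33.3 CPM per kb), *Rhox5* (22.8), *Arid4a* (9.31), *Arid4b* (8.26) and *Rb1* (6.50). *Arid4a* then stood above *Arid4b*, because *Arid4b* has 19480 annotated exon bases but a canonical transcript of 6143.

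Over the 8 mice, the genes whose log2 CPM followed *Arid4a* most closely were *Supt6* (Pearson r = 0.995), an elongation factor gene, *Gpatch2* (r = 0.988) and *Phf2* (r = 0.986), which encodes a histone demethylase. For *Arid4b* they were *Ranbp2* (r = 0.981), *Erbin* (r = 0.979) and *Rif1* (r = 0.968). For *Rhox5* they were *Tor2a* (r = 0.976), *Med29* and *S100a13* (both r = 0.974). For *Rb1* they were *Ern1* (r = 0.979), *Fkbp1b* (r = 0.967) and *Itih3* (r = 0.964). For *Sin3a* they were *Vash2* (r = 0.991), *Mfap3* (r = 0.974) and *Arid5b* (r = 0.972), itself an ARID gene. These are the 3 highest of 15475 genes over 8 libraries that share genotype and scaling, and are given as a description. Between members, *Arid4b* and *Sin3a* had r = 0.843, *Arid4a* and *Sin3a* 0.734 and *Arid4a* and *Arid4b* 0.556, while *Rhox5* had r = 0.266 with *Arid4a* and -0.414 with *Arid4b*.

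The partners of the 5 genes were read from 7 lists of pathway genes. Of the 102 different genes in them that could be tested, 0 were called by edgeR, where the lowest adjusted p was 0.131. DESeq2, which called 2.79% of all genes, called 3 of the 102: *Lhcgr*, *Hsd3b6* and *Ccnd2*. The unadjusted edgeR p was under 0.05 for 19 of the 102 genes (18.6%), 9 higher and 10 lower, against 15.3% of all genes tested. Genotypes did not overlap for 3 of the 102 genes (2.94%), against 8.54% of all genes tested.

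In the SIN3 complex, all 17 listed genes other than *Sin3a* itself were tested, and 9 had a positive and 8 a negative log2 fold change, with a median of 0.01, which was -0.02 to 0.02 in fits that omitted 1 mouse. The values ran from -0.13 to 0.07. *Rbbp4*, a histone-binding subunit, had the smallest p of the list. It had 464.8 ± 17.5 CPM in wild type against 424.9 ± 15.1 CPM in *Tra2b-cPEko* mice (both SD, n = 4), with a log2 fold change of -0.13 (standard error 0.04, edgeR adjusted p = 0.208). The deacetylase gene *Hdac1* (log2 fold change -0.09) and *Sap18* (-0.11) followed, with edgeR adjusted p of 0.362 and 0.422. Part of the transcripts of *Hdac1* and *Sap18* is identical to a second gene, 22.3% of the 100-base words of *Hdac1* to *Hdac1-ps* and 13.5% of those of *Sap18* to *Sap18b*. *Rbbp7*, the member of the list with the highest level per kilobase, had 389.0 CPM in wild type and 388.0 CPM in *Tra2b-cPEko* testes.

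Among 17 genes of the RB family, the E2F factors with their partners, and the D-type cyclins with their kinases, 6 had a positive and 11 a negative log2 fold change, with a median of -0.04. An unadjusted edgeR p under 0.05 was found for 2 higher and 5 lower genes of the 17, against 15.3% of all genes tested. After adjustment edgeR called 0 of the 17. *Ccnd2*, the D-type cyclin of dividing spermatogonia and Sertoli cells, had 177.4, 187.9, 224.0 and 196.8 CPM in wild type mice A to D and 163.5, 181.1, 144.6 and 144.7 CPM in *Tra2b-cPEko* mice A to D. Only *Tra2b-cPEko* mouse B entered the wild type range. For *Ccnd2* this gave a log2 fold change of -0.31 (standard error 0.09, adjusted p = 0.159 in edgeR and 0.0259 in DESeq2). *E2f2*, an activating E2F factor, had a log2 fold change of -0.27 (edgeR adjusted p = 0.199), and *Rbl2*, the RB relative p130, one of 0.15 (edgeR adjusted p = 0.200). *Cdk4*, which phosphorylates the retinoblastoma protein, had one of -0.05 (edgeR adjusted p = 0.618).

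The other 13 genes with an ARID domain had log2 fold changes between -0.06 and 0.14 and a median of 0.03, and 10 were positive. This median was 0.06 without wild type mouse C and -0.01 without wild type mice A and B. *Kdm5c*, an X-linked histone demethylase gene, had 200.8 CPM in wild type and 218.3 CPM in *Tra2b-cPEko* mice (log2 fold change 0.12, standard error 0.05, edgeR adjusted p = 0.249). *Arid5b* (0.14) and the Y-linked *Kdm5d* (0.08) had edgeR adjusted p of 0.365 and 0.494. *Kdm5b* was at 451.5 and 450.7 CPM.

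Of 18 cofactors and chaperones of the androgen receptor, 13 had a positive and 5 a negative log2 fold change, with a median of 0.04, which was 0.02 without wild type mouse B or *Tra2b-cPEko* mouse C. *Ncoa1*, a coactivator of steroid receptors, did not overlap between genotypes, with 80.9 to 90.4 CPM in wild type and 91.2 to 99.3 CPM in *Tra2b-cPEko* mice (log2 fold change 0.14, standard error 0.05, edgeR adjusted p = 0.215). *Ncoa2*, its relative, had a log2 fold change of 0.14 (edgeR adjusted p = 0.334), and the chaperone gene *Ptges3* one of -0.09 (edgeR adjusted p = 0.318). *Ptges3* shares 20% of its 100-base words with *Ptges3-ps* and 16.2% with *Gm68507*. The chaperone gene *Hsp90ab1*, the most abundant of the list, had 1880 CPM in wild type and 1883 CPM in *Tra2b-cPEko* testes.

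**Figure D3:**
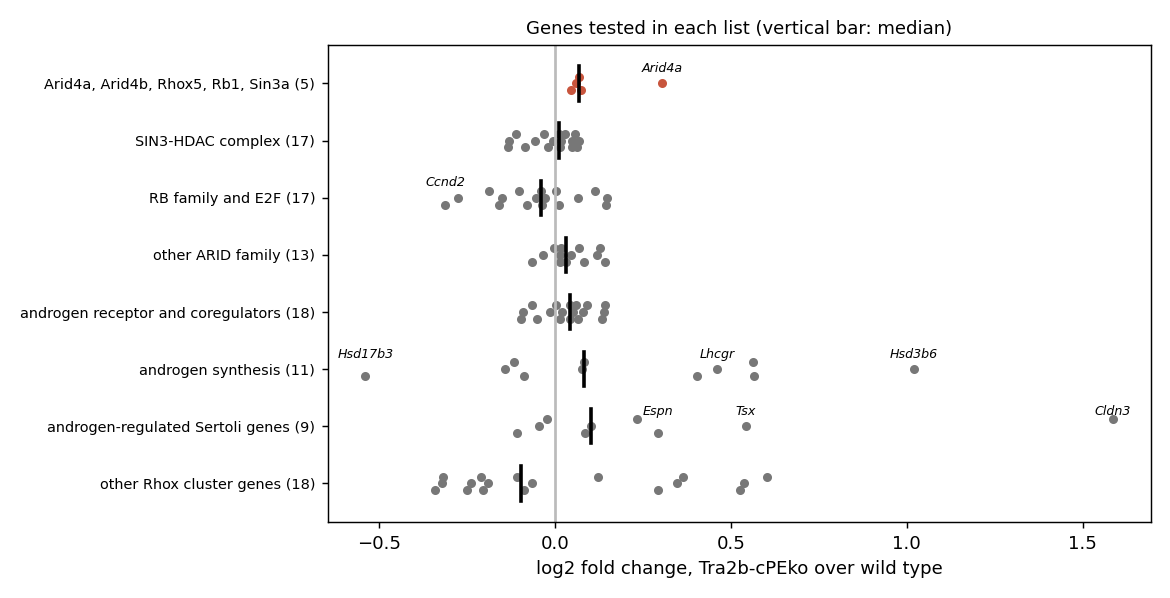
Log2 fold change of *Tra2b-cPEko* over wild type (x axis) for each gene tested in the 5 member genes (red) and the 7 pathway lists (rows, number tested in brackets); the vertical bars are medians. The list medians lie between -0.10 and 0.10, and the widest spreads are in the androgen synthesis, Sertoli and Rhox lists.

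Androgen synthesis, the work of Leydig cells, had a wide spread, with log2 fold changes from -0.54 to 1.02 over 11 genes and a median of 0.08. Fits that omitted 1 mouse gave medians of 0.09 to 0.17, the highest without *Tra2b-cPEko* mouse B. *Lhcgr*, the receptor through which luteinizing hormone drives Leydig cells, had 23.7, 24.5, 27.7 and 20.4 CPM in wild type mice A to D and 29.4, 37.2, 37.6 and 28.4 CPM in *Tra2b-cPEko* mice A to D, without overlap. *Lhcgr* had a log2 fold change of 0.46 (standard error 0.12), and its adjusted p was 0.131 in edgeR and 0.00851 in DESeq2. *Hsd3b6*, a 3-beta-hydroxysteroid dehydrogenase gene of adult-type Leydig cells, had 11.9, 8.73, 11.6 and 13.2 CPM in wild type mice A to D and 30.3, 12.8, 28.1 and 20.7 CPM in *Tra2b-cPEko* mice A to D. Mouse B of the *Tra2b-cPEko* group lay in the wild type range and the other 3 above it. For *Hsd3b6* the log2 fold change came to 1.02 (standard error 0.28), and the adjusted p to 0.183 in edgeR and 0.0308 in DESeq2. *Hsd17b3*, whose enzyme makes testosterone, was lower in the mean of *Tra2b-cPEko* mice, with 34.2, 31.0, 35.3 and 28.9 CPM in wild type mice A to D and 21.9, 30.2, 14.6 and 22.7 CPM in *Tra2b-cPEko* mice A to D (log2 fold change -0.54, standard error 0.20, edgeR adjusted p = 0.267). *Cyp11a1*, the first enzyme of steroid synthesis, had a log2 fold change of 0.08 (edgeR adjusted p = 0.756). Without *Tra2b-cPEko* mouse C, the log2 fold changes were 0.39 for *Lhcgr*, 0.91 for *Hsd3b6* and -0.38 for *Hsd17b3*, and edgeR called none of the 3.

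Androgen-regulated genes of Sertoli cells were not all of one sign, with 6 of 9 log2 fold changes positive and a median of 0.10, which was 0.05 without wild type mouse A and 0.26 without wild type mouse D. *Espn*, an actin-bundling protein of Sertoli cell junctions, had 180.3, 233.0, 198.2 and 232.6 CPM in wild type mice A to D and 265.3, 224.6, 268.7 and 275.7 CPM in *Tra2b-cPEko* mice A to D (log2 fold change 0.29, standard error 0.09, edgeR adjusted p = 0.198). *Tsx*, an X-linked gene, had 15.6, 19.0, 12.8 and 11.01 CPM against 24.0, 15.9, 26.6 and 18.2 CPM (log2 fold change 0.54, standard error 0.22, edgeR adjusted p = 0.299). In both genes *Tra2b-cPEko* mouse B was the lowest of its genotype, as it was for *Rhox5*, *Arid4a* and *Arid4b*. Another *Tra2b-cPEko* mouse was the lowest for *Rb1* and *Sin3a*, and for *Rhox8* and *Cldn11* of this list. *Rhox8*, the Sertoli relative of *Rhox5*, had 137.2 ± 6.58 CPM in wild type against 127.5 ± 7.92 CPM in *Tra2b-cPEko* mice (both SD, n = 4) (log2 fold change -0.11, standard error 0.05, edgeR adjusted p = 0.359). The tight junction gene *Cldn11* had a log2 fold change of -0.04 (edgeR adjusted p = 0.705). *Cldn3*, another tight junction gene, is named after its values were seen. It had 1.28 to 1.61 CPM in wild type mice, 1.47 to 1.88 CPM in 3 *Tra2b-cPEko* mice and 11.7 CPM in mouse C, and its log2 fold change fell from 1.59 to 0.28 without mouse C.

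**Figure D4:**
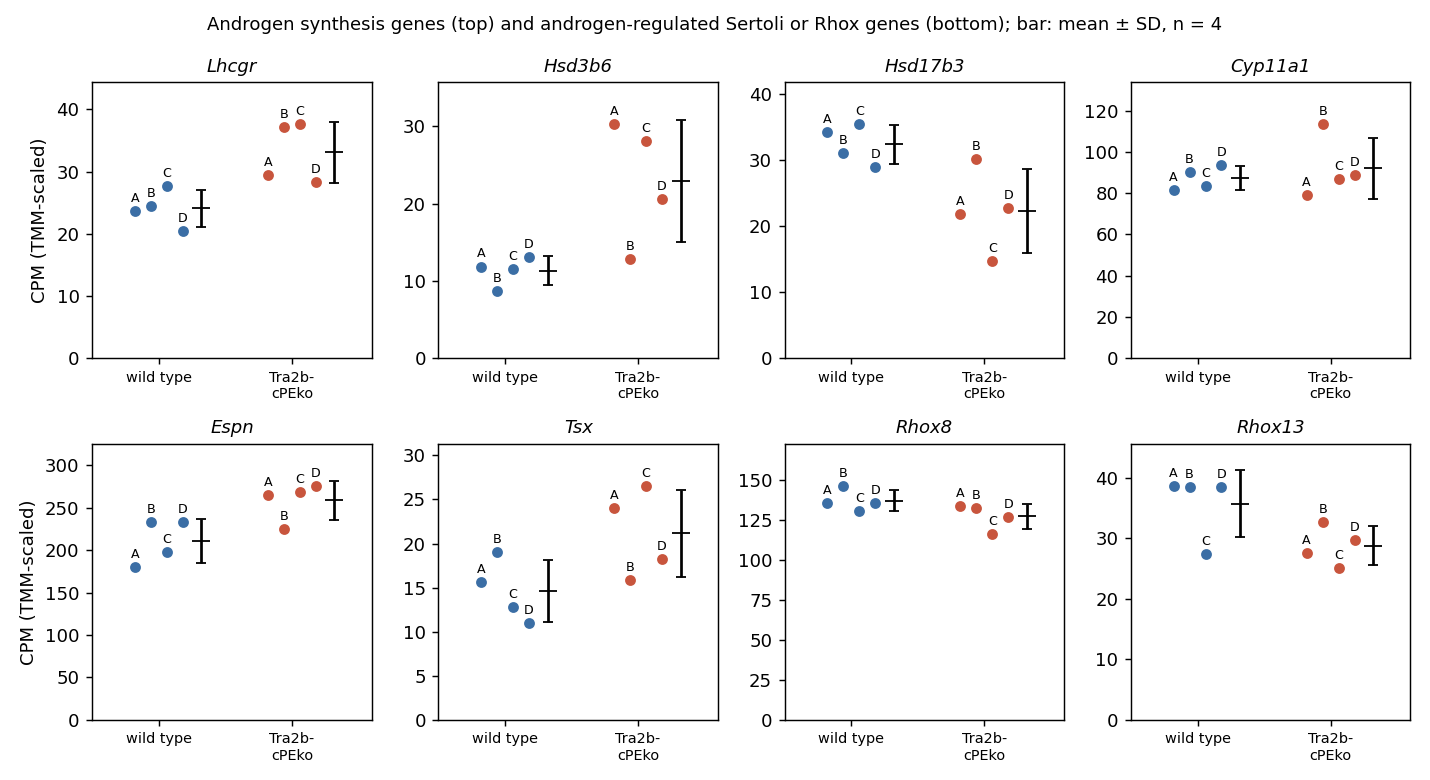
CPM (y axis, TMM-scaled, from 0) in each mouse (letters) of 4 androgen synthesis genes (top) and of *Espn*, *Tsx*, *Rhox8* and *Rhox13* (bottom), with mean ± SD (n = 4). *Lhcgr* is the panel without overlap between genotypes, and *Hsd3b6* and *Tsx* show *Tra2b-cPEko* mouse B at 12.8 and 15.9 CPM, apart from mice A and C.

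The Rhox cluster beside *Rhox5* was mostly low in P12 testes. Of the 31 other Rhox genes listed, 30 had a row in the tables and 18 were tested, with 7 positive and 11 negative log2 fold changes and a median of -0.10. This median was -0.17 without wild type mouse C, -0.03 without *Tra2b-cPEko* mouse C and 0.009 without wild type mice A and B. *Rhox8* and *Rhox13* were the 2 with a wild type mean above 10 CPM. *Rhox13*, a Rhox gene of germ cells, had 38.7, 38.5, 27.5 and 38.5 CPM in wild type mice A to D and 27.5, 32.7, 25.1 and 29.7 CPM in *Tra2b-cPEko* mice A to D. Wild type mouse C lay among the *Tra2b-cPEko* mice. *Rhox13* had a log2 fold change of -0.32 (standard error 0.12, edgeR adjusted p = 0.258). *Rhox2a* (log2 fold change -0.34) and *Rhox9* (0.54) had edgeR adjusted p of 0.268 and 0.316, at 2.98 and 0.270 CPM in wild type testes. *Rhox2a* shares 49.2% of its 100-base words with *Rhox2e*, so its count is uncertain.

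The cells behind these values were read from 9 lists of marker genes. Sertoli markers summed to 6241 ± 274 CPM in wild type against 6319 ± 340 CPM in *Tra2b-cPEko* testes (both SD, n = 4), with *Clu* the most abundant, and edgeR called 0 of 14, against 0.157% of all genes (unadjusted p under 0.05 for 1 of the 14). The median log2 fold change of the Sertoli list was -0.02, and -0.05 to 0.008 in fits that omitted 1 mouse. *Amh*, which Sertoli cells lose as they mature, had a log2 fold change of -0.37 (edgeR adjusted p = 0.325; -0.24 without *Tra2b-cPEko* mouse C), and *Ptgds* one of 0.60 (edgeR adjusted p = 0.641), which turned to -0.25 without *Tra2b-cPEko* mouse C. Leydig markers summed to 648.4 ± 17.3 and 706.2 ± 110 CPM, with 860.3 CPM in *Tra2b-cPEko* mouse B, and their most abundant gene was *Nr5a1*. Of the 8 Leydig markers, 5 had a positive and 3 a negative log2 fold change, with a median of 0.24. That median was 0.03 to 0.33 in fits that omitted 1 mouse and 0.003 without wild type mice A and B. *Star* and *Cyp17a1*, both steroid synthesis genes, were highest in *Tra2b-cPEko* mouse B, at 144.1 and 175.6 CPM, with log2 fold changes of 0.57 and 0.56 (edgeR adjusted p = 0.499 and 0.533). Without *Tra2b-cPEko* mouse B these were 0.30 and 0.28.

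Macrophage markers, led by *Mrc1*, summed to 162.9 ± 15.4 CPM in wild type against 198.1 ± 15.8 CPM in *Tra2b-cPEko* testes (both SD, n = 4). All 9 had a positive log2 fold change, with a median of 0.28, and edgeR called 0 and DESeq2 2 of them, against 2.79% of all genes in DESeq2. The unadjusted edgeR p was under 0.05 for 6 of the 9, against 15.3% of all genes tested. *Cx3cr1* had a log2 fold change of 0.41 (adjusted p = 0.127 in edgeR and 0.0256 in DESeq2) and *Mrc1* one of 0.32 (edgeR adjusted p = 0.193, and 0.0452 with the replicate block). These means were higher in the same genotype as that of *Arid4a*, and their part in its difference was not tested. Spermatogonial markers summed to 1026 ± 43.1 and 939.3 ± 40.9 CPM, led by *Uchl1* (log2 fold change -0.10). *Sohlh1*, a transcription factor gene of differentiating spermatogonia, was the 1 gene of the 9 marker lists that edgeR called, against 0.157% of all genes tested. It fell by 0.34 on the log2 scale (edgeR adjusted p = 0.0341), from 47.5 to 37.4 CPM. The call was lost without wild type mouse B, without *Tra2b-cPEko* mouse A, C or D, and without wild type mice A and B, where the edgeR adjusted p of *Sohlh1* was between 0.0691 and 0.148 and its log2 fold change between -0.37 and -0.33. *Stra8*, which starts meiosis, had a log2 fold change of -0.28 (edgeR adjusted p = 0.453), which was -0.19 without wild type mouse A and -0.43 without *Tra2b-cPEko* mouse B.

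Markers of leptotene and zygotene spermatocytes summed to 1890 ± 274 and 1709 ± 27.8 CPM, and 13 of 15 had a negative log2 fold change, with a median of -0.15. *Stag3*, a meiotic cohesin gene, had one of -0.30 (adjusted p = 0.159 in edgeR and 0.0256 in DESeq2), which was -0.16 without wild type mice A and B, and *Tex12* one of -0.28 (edgeR adjusted p = 0.299), which was -0.17 without wild type mouse A and -0.05 without wild type mice A and B. The median of this list was -0.20 to -0.06 in fits that omitted 1 mouse, and 0.06 without wild type mice A and B. Pachytene markers, led by *Hspa2* (log2 fold change -0.06), summed to 345.1 ± 81.1 and 307.5 ± 25.4 CPM. *Piwil1* (-1.33) and *Ldhc* (-1.18) had edgeR adjusted p of 0.332 and 0.528. Without wild type mice A and B, *Piwil1* was at -0.11 and *Ldhc* turned to 0.77. Peritubular and stromal markers, led by *Col3a1* (log2 fold change 0.10), had a median of 0.08 (0.04 without *Tra2b-cPEko* mouse C), with *Myh11* at 0.21 and *Tagln* at 0.15 (edgeR adjusted p = 0.166 and 0.280). Endothelial markers, led by *Cdh5*, had a median of 0.03 (-0.008 without wild type mouse D and 0.08 without wild type mouse C), with *Pecam1* at 0.13 and *Tek* at 0.07 (edgeR adjusted p = 0.543 and 0.746). *Pecam1* was at 0.04 without *Tra2b-cPEko* mouse C and 0.21 without *Tra2b-cPEko* mouse A. Of the 11 epididymal markers only *Pax2* (0.58) and *Cst8* (-0.19) passed the low-count filter (edgeR adjusted p = 0.568 and 0.397). The *Pax2* value was 0.06 without *Tra2b-cPEko* mouse C.

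**Figure D5:**
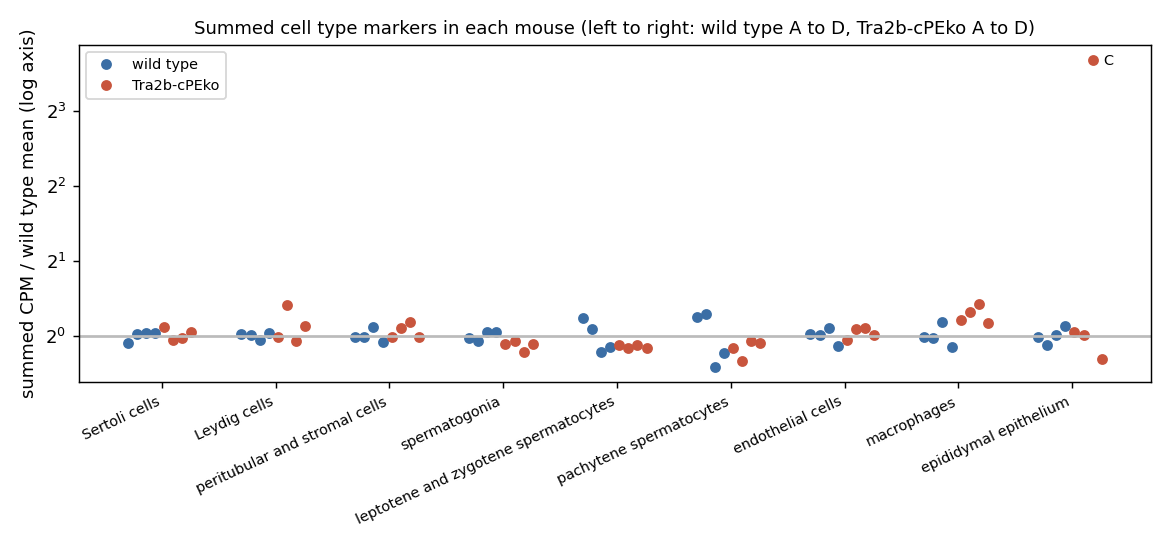
Summed CPM of each of 9 marker lists (x axis) in each mouse, divided by the wild type mean (y axis, log axis in base 2); blue points are wild type and red points *Tra2b-cPEko* mice A to D from left to right. The epididymal sum of *Tra2b-cPEko* mouse C, 157.3 CPM, stands far above all other points, and wild type mice A and B (408.1 and 420.1 CPM) are the highest in pachytene markers.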

How the data were processed

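Total RNA of whole P12 testes (4 wild type mice, 4 *Tra2b-cPEko* mice, independent per the methods) was sequenced as stranded mRNA libraries. The authors deposited raw counts per gene, 1 table per mouse, with 40840 genes and 5 summary lines in the form HTSeq writes; the paper's methods name Salmon, and the submitters' processing notes name HISAT2 2.2.1, SAMtools 1.7.1, HTSeq 2.0.2 and GRCm39. Reads on genes made up 66.4% to 69.0% of each table, and the summary lines were left out. Whether counting used the strand is not given in the sources used here.

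Counts were fitted in R 4.3.3 with edgeR 4.0.16 (filterByExpr with a least count of 10 and a least total of 15, TMM factors, robust quasi-likelihood F-test, genotype as the only term), and p-values were adjusted by Benjamini-Hochberg over all genes tested, with calls at 0.05. CPM are counts over TMM-scaled library sizes. The SE is the fold change over the root of F. No library was a copy of another (chi-square per degree of freedom 6.24 to 19.1 within genotypes). DESeq2 1.42.0, limma-voom (limma 3.58.1), RLE and upper-quartile factors, no filter, a mean count of at least 50, the replicate letter as a block and fits without each mouse were run as alternatives, and a fit without wild type mice A and B was added after the data were seen.

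The members and lists were chosen with earlier results of these data known. The genes named are the members, *Tra2b* and *Tra2a*, in each pathway list the genes called, the 3 with the smallest p and the one with the highest level per kilobase, in each marker list the most abundant and the 2 with the largest fold change at a mean of at least 1 CPM, and the 3 genes most correlated (on log2 CPM with a prior count of 2) with each member. A further gene that this rule names is not reported here. Identical stretches were searched as 100-base words of GENCODE transcripts. Methods were tested on simulated data.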

Additional observations from a re-analysis of the deposited data

Results flagged for a closer look

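In each genotype, the highest or lowest of the 4 mice was compared with the others (Dixon's ratio) for 137 sets of 4 values, and 13 stood apart, where chance gives about 6.85. The log2 ratio of *Arid4a* to *Arid4b* was -1.11 in *Tra2b-cPEko* mouse B and between -0.96 and -0.95 in the other 3.

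*Tra2b-cPEko* mouse C was high in epididymal and related genes. The epididymal sum was 157 CPM against 9.91 to 12.7 in the other 3 mice of its genotype, *Crisp1* 107 CPM against 0 to 0.341 and *Ptgds* 9.26 CPM against 1.76 to 2.56. In *Tra2b-cPEko* mouse A, *Rbbp4* was at 447 CPM against 416 to 418 and *Cldn11* at 505 CPM against 441 to 449.

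In wild type mouse C, *Arid5b* was at 94.3 CPM against 77.1 to 79.6, *Rhox13* at 27.5 CPM against 38.5 to 38.7 and *Mrc1* at 46.6 CPM against 36.2 to 37.9. In wild type mouse D, *Tagln* was at 89.9 CPM against 102 to 103 and *Pax2* at 3.81 CPM against 1.999 to 2.08. In wild type mouse A, *Clu* was at 3400 CPM against 3700 to 3740, and the Sertoli sum was 5830 CPM against 6340 to 6400.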

How the results depend on the processing

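The log2 fold change of *Arid4a* was positive under all 16 alternatives, from 0.27 to 0.34. *Arid4a* was called under 7 of them. The number of members called was 0 with limma-voom, with a mean count of at least 50 and without wild type mice A and B. Without each mouse that number was 0 to 1. The members were chosen on this contrast, so these calls are no test of *Arid4a* and nothing is read from them. *Arid4b*, *Rb1* and *Sin3a* were positive under all 16 and *Rhox5* under 14. Genes called over all genes, 30 as reported, were 507 with DESeq2, 58 with upper-quartile factors, 123 with no filter, 14 with a mean count of at least 50, 1 without wild type mice A and B and 3 to 84 without each mouse. Pathway genes called, 0 as reported, were 3 with DESeq2 and 0 to 1 without each mouse (*Rhox13* without wild type mouse C, *Hsd3b6* without *Tra2b-cPEko* mouse B). Medians of log2 fold change moved to 0.25 for androgen synthesis with a mean count of at least 50, and ranged from 0.0496 to 0.261 for androgen-regulated Sertoli genes without each mouse. Without wild type mice A and B they were 0.0173 for androgen receptor cofactors, 0.0611 for leptotene and zygotene, 0.00347 for Leydig, -0.0898 for Sertoli and -0.17 for spermatogonial markers. With all mice, the Leydig and spermatogonial medians were 0.24 and -0.10.

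No pairing of the mice by letter was seen: same-letter deviations correlated at 0.03, -0.14, -0.04 and 0.12, and 2 of 8 mice correlated best with their own letter. So few mice cannot exclude a pairing, and the labels give the letters only as replicate names. With the replicate block, 67 genes and 1 pathway gene (*Lhcgr*) were called, and *Mrc1* and *Tra2b* gained a call (both adjusted p = 0.0452). *Tra2b* was also called by edgeR with upper-quartile factors (adjusted p = 0.0318) and with no filter (0.0128). So it was without wild type mouse D (0.0488) and without *Tra2b-cPEko* mouse B (0.0487).

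*Sohlh1* lost its call without wild type mouse B, without *Tra2b-cPEko* mice A, C or D and without wild type mice A and B, with edgeR adjusted p of 0.119, 0.101, 0.108, 0.148 and 0.0691. Leaving out 1 mouse moved the log2 fold change of 25 of 53 named genes other than the members by over 1.5 times, or turned it. These included *Cdk4* (-0.08 to -0.02), *Sap18* (-0.18 to -0.08) and *Ncoa2* (0.09 to 0.20). They also included *Rhox8* (-0.13 to -0.07), *Cldn11* (-0.09 to -0.03) and *Col3a1* (0.04 to 0.16). Besides *Rhox5*, signs turned for 8 named genes, of which *Ptgds* (0.60) and *Ldhc* (-1.18) were not near 0 as reported. Without each mouse, log2 fold changes ran from -0.00588 to 0.102 for *Cdh5*, -0.0397 to 0.141 for *Cyp11a1*, -0.0199 to 0.0376 for *Hsp90ab1*, -0.21 to 0.10 for *Hspa2*, -0.0299 to 0.014 for *Kdm5b*, -0.25 to 0.85 for *Ptgds* and -0.0182 to 0.0238 for *Rbbp7*. Without wild type mice A and B they were -0.0234 for *Hsp90ab1*, 0.33 for *Hspa2* and 0.77 for *Ldhc*. *Hsp90ab1* was at -0.00573 with no filter, *Kdm5b* at 0.0159 with upper-quartile factors and 0.000175 with a mean count of at least 50, and *Rbbp7* at 0.0146 with upper-quartile factors. The cause of these changes was not tested.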
